A study of Mus musculus with 6 samples.

Results

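Expression at postnatal day 5 (P5) was set against both other ages sampled, embryonic day 18 (E18) and 8 weeks (Adult), in purified mouse retinal ganglion cells (RGCs). The P5 contrast of a gene is its P5 mean minus the average of its E18 and Adult means, on the scale of log2(FPKM + 1), where FPKM are fragments per kilobase of transcript scaled to library size. A peak at P5 needed a limma adjusted p under 0.05 for a positive contrast and both P5 libraries above the other 4 libraries. A dip needed the reverse. Of the 17027 gene symbols listed, 14390 had a mean of at least 1 FPKM and were tested. Of these 14390 genes, 1658 had a peak (11.5%) and 1300 had a dip (9.03%).

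RGCs are the neurons that carry visual signals from the retina to the brain through the optic nerve. At birth their axons are reaching and refining their targets, spontaneous waves of activity cross the retina, and part of the cells die. In the following weeks synapses mature, the eyes open and the cells take on their adult firing properties. A sample between late gestation and adulthood can show genes whose transcripts are high or low for a limited time, which a comparison of the youngest and oldest cells alone would miss.

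All mice were wild type and of strain C57/6NCrl, with no transgene or treatment named, and each age had 2 libraries. Per the labels' protocols, RGCs were captured on antibody to Thy1 after antibodies had removed macrophages, and amacrine cells were depleted too according to the protocol given with the samples. The P5 libraries share 1 column header in the deposited table and are called a and b, while E18 and Adult libraries keep their replicate numbers. Whether the pair of libraries at each age stems from different mice is not stated, so the p-values reflect no more than the spread of these samples, which may be technical. Depth per library is unknown, as FPKM hold no counts.

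The median over 23 RGC markers was 113 and 134 FPKM in the E18 libraries, 115 and 117 in those of P5 and 18.8 and 11.7 in Adult. For 16 rod photoreceptor markers it lay between 0.0621 and 0.239 FPKM in the 4 younger libraries and was 232 and 26.1 FPKM in Adult replicates 1 and 2. Markers of bipolar cells, amacrine cells and Muller glia also had higher medians in both Adult libraries than in the younger 4, and in E18 replicate 1 retinal progenitor markers had a median of 6.61 FPKM against 0.995 FPKM in replicate 2. The part of these differences in the peaks and dips was not tested. In bulk RNA, fewer cells of a type and less RNA per cell cannot be told apart. When each library was divided by its median RGC marker level instead, the median P5 contrast of all tested genes went from 0.03 to -1.29, 78 genes had a peak and 3036 had a dip. With that scaling 72 of the 1658 peaks and 1005 of the 1300 dips remained. The peaks below thus hold on the deposited FPKM scale and, for most genes, not relative to RGC markers. Of the 115 genes described here, 33 of the 72 with a P5 contrast above 0 turned below 0 with that scaling, 12 of them called lower, while those below 0 kept their direction.

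The contrast alone called 3220 genes higher at P5 (22.4%) and 2323 lower (16.1%), and its median over all tested genes was 0.03. TPM gave 7139 higher and 1073 lower, and scaling to the total of protein-coding genes gave 2324 and 3097, which turns the balance. TPM divides by the sum over all genes. In that sum miscellaneous RNA genes had 245842 and 282010 FPKM in Adult and at most 51410 FPKM in the younger libraries. Of the 3220 and 2323 calls, 1562 and 1023 were genes for which the P5 libraries did not lie outside both other ages. By mean level, P5 was the highest age for 3893 genes, the lowest for 3890 and the middle one for 6607. Adult was the more distant age for most of the peaks and dips, since 1554 peaks passed the test against Adult and 404 against E18, with 33.7% and 5.52% of all tested genes called higher at P5 than at those ages. Of the dips, 1201 passed against Adult and 287 against E18, with 26.2% and 4.95% of all tested genes called lower. Both differences were called, in the same direction, for 340 genes above both ages (2.36%) and 236 genes below both (1.64%), and these are called two-sided peaks and dips. In the scatter of the differences from each age they form the outer part of the upper right and lower left quadrants. Among two-sided genes, 100 peaks and 65 dips had a P5 mean more than a factor of 2 from each other age. These two-sided calls need the most from 2 libraries per age: without P5 library a there were 3 peaks and 2 dips of this kind, without E18 replicate 1 there were 3 and 5, without E18 replicate 2 there were 17 and 46, and without any 1 of the other libraries between 130 and 143 peaks and between 85 and 101 dips. When the larger p-value of the 2 differences was adjusted over all genes instead, 119 peaks and 76 dips were two-sided.

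**Figure D1:**
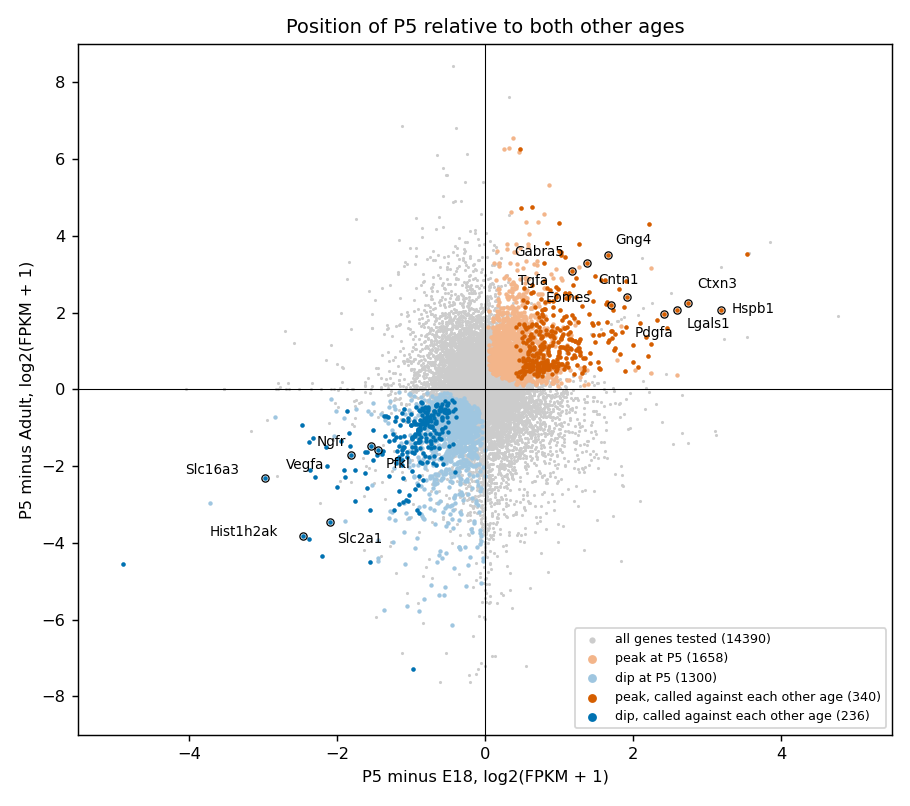
Each point is a gene tested. The horizontal axis is the P5 mean minus the E18 mean and the vertical axis the P5 mean minus the Adult mean, both on log2(FPKM + 1). Light orange and light blue points are the 1658 peaks and 1300 dips, dark points are the 340 and 236 called against each other age, and 5 genes lie outside the plotted range.

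Leaving out predicted genes and small RNAs, the peak farthest above the nearer of the other ages, among genes of at least 10 FPKM at P5, was that of Ctxn3, which encodes a small membrane protein of the cortexin family. Ctxn3 had 1.39 and 0.765 FPKM at E18, 15.3 and 10.5 at P5, then 2.77 and 1.17 in Adult. The P5 mean was 11.96-fold that of E18 and 6.55-fold that of Adult (P5 contrast 2.50, 95% interval 1.81 to 3.18, limma adjusted p = 0.00201). Hspb1, a small heat shock protein that binds unfolded proteins and actin, had 3.26 and 2.64 FPKM at E18, 51.8 and 23.2 at P5, then 6.92 and 8.11 in Adult (P5 contrast 2.63, interval 1.89 to 3.36, limma adjusted p = 0.0021). Its P5 libraries differed from each other by more than the libraries of either other age did. P5 library b was above all 4, as the definition of a peak requires.

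Lgals1 encodes galectin-1, a secreted lectin that binds galactose-containing sugars. It had 4.64 and 3.81 FPKM at E18, 47.6 and 19.4 at P5, then 7.47 and 5.64 in Adult (P5 contrast 2.33, interval 1.51 to 3.15, limma adjusted p = 0.00411). The annexins, proteins that bind membranes in the presence of calcium, included further peaks. Anxa6 had 16.9 and 20.5, 81.7 and 44.7, and 15.2 and 8.94 FPKM at E18, P5 and Adult. Anxa3, at much lower levels, had 0.437 and 0.383, 2.83 and 3.25, and 0.333 and 0.127 FPKM. For Hspb1, Lgals1 and Anxa6 the level in P5 library a was well above that in library b, while Anxa3 was higher in library b. Of the 17 tested galectins, annexins and S100 proteins, 5 had a peak and 1 had a dip (29.4% and 5.88%). Over all genes tested the shares were 11.5% and 9.03%.

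Genes of different roles followed among the highest peaks. Cntn1 encodes contactin-1, an adhesion molecule of axons that takes part in the paranodal junction with myelin. It had 38.3 and 48.5 FPKM at E18, 191 and 144 at P5, then 31.9 and 28.6 in Adult (P5 contrast 2.17, interval 1.79 to 2.54, limma adjusted p = 0.000724). Gng4, a G protein gamma subunit, had 30.9 and 39.0, 125 and 98.9, and 10.3 and 7.67 FPKM. Its P5 mean was 3.21-fold that of E18 and 12.5-fold that of Adult (limma adjusted p = 0.011 and 6.4e-05). Camk4, a calcium and calmodulin-dependent kinase that acts in the nucleus, had 6.21 and 6.84, 26.8 and 27.3, and 7.28 and 8.91 FPKM. E18 and Adult were close to each other for this gene, and the P5 libraries were nearly equal. Pcp4, a regulator of calmodulin, had the highest level among the 20 leading peaks, with 96.5 and 145, 518 and 354, and 140 and 166 FPKM.

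The tetraspanin Tspan2 had 5.61 and 6.21, 25.7 and 18.6, and 4.60 and 4.28 FPKM at E18, P5 and Adult. The secreted protein Nell1 had 16.6 and 14.4, 58.1 and 46.8, and 19.1 and 15.8 FPKM. The motor Myo5b had 3.84 and 2.62, 13.2 and 11, and 3.46 and 2.40 FPKM. Each of these genes was called against both ages. The remaining ones of the 20 leading peaks were Eomes, which is described with the RGC subtypes, Anxa2, and Arrdc4, Cdkl2, Slc35f4, Ptgfrn, Tshz2 and Lamb1, whose P5 contrasts ranged from 1.51 to 2.24. The P5 contrast of Anxa2 was 1.75 without E18 replicate 1 or replicate 2, 1.17 without P5 library a and 1.42 without Adult replicate 2, and was not called in these fits.

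**Figure D2:**
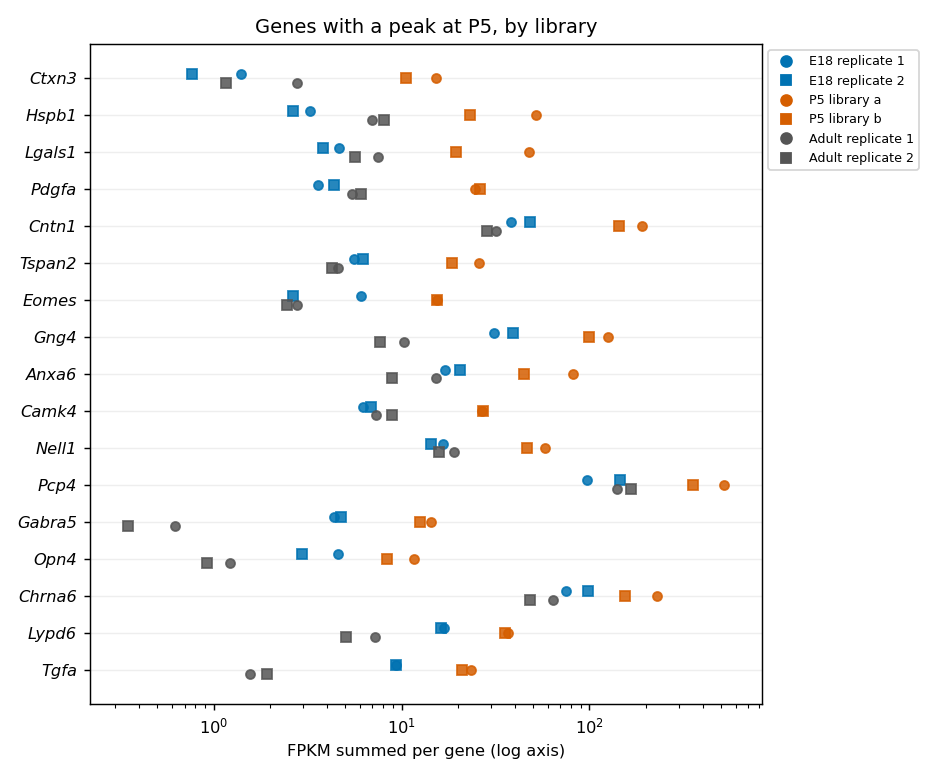
FPKM of 17 genes with a peak at P5, on a log axis, in each of the 6 libraries (circles and squares separate the 2 libraries of an age). By the definition of a peak, the orange P5 points lie to the right of all blue and grey points in every row. The gap between P5 libraries is widest for Lgals1 (47.6 and 19.4 FPKM) and Hspb1 (51.8 and 23.2 FPKM).

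Ligands of receptor tyrosine kinases were among the peaks. Pdgfa encodes the A chain of platelet-derived growth factor, which acts on the receptor alpha carried by retinal astrocytes. It had 3.60 and 4.38 FPKM at E18, 24.7 and 26.1 at P5, then 5.43 and 6.08 in Adult. The P5 mean of 25.4 ± 1.01 FPKM (SD, n = 2) was 6.36-fold that of E18 and 4.41-fold that of Adult (P5 contrast 2.19, interval 1.90 to 2.48, limma adjusted p = 0.000422). Pdgfb, the B chain, had 1.18 and 1.49, 5.26 and 5.501, and 0.329 and 0.264 FPKM. Tgfa, a ligand of the epidermal growth factor receptor, had 9.30 in both E18 libraries, 23.5 and 20.9 at P5, and 1.55 and 1.92 FPKM in Adult. All 3 genes were called against each other age (limma adjusted p between 0.00326 and 0.0113 against E18). In the list of 27 secreted growth factors and morphogens, these were the 3 peaks (11.1%, against 11.5% of all genes tested). A dip was found in 4 genes (14.8%, against 9.03%), 2 of them two-sided.

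Of 37 tested markers of RGC subtypes, 14 had a peak (37.8%, against 11.5% of all genes tested) and none a dip. The P5 contrast was below 0 for 10 of the 37, down to -1.72, and 5 of these were called lower. The median P5 contrast of the list was 0.85, or -0.36 after division by the RGC marker level, where the median of all tested genes was -1.29. Eomes, a transcription factor of several RGC types that include those with melanopsin, had 6.06 and 2.65 FPKM at E18, 15.5 and 15.3 at P5, then 2.76 and 2.45 in Adult. Opn4, which encodes melanopsin, the photopigment of intrinsically photosensitive RGCs, had 4.57 and 2.94, 11.7 and 8.40, and 1.22 and 0.924 FPKM. For both genes the difference from E18 was called (limma adjusted p = 0.0251 for Eomes and 0.0317 for Opn4).

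Satb1, a chromatin protein that marks some direction-selective RGCs, had 22.3 and 21.1, 29.8 and 31.8, and 7.68 and 6.42 FPKM, with a step between E18 and P5 that was not called (limma adjusted p = 0.06). Trhr, the receptor for thyrotropin-releasing hormone, was close to 0 at E18 (0.000105 and 0.00342 FPKM) and had 4.58 and 3.51 FPKM at P5, then 0.574 and 0.311 FPKM in Adult. Cdh6 and Col25a1, a cadherin and a membrane collagen, were two-sided peaks with P5 contrasts of 1.23 and 0.98. Serpine2, a protease inhibitor, was also two-sided (1.05). Adcyap1, the neuropeptide PACAP, and Tbx20, another transcription factor of melanopsin cells, peaked with differences from E18 that were not called (limma adjusted p = 0.293 and 0.101). Without P5 library a the P5 contrast of Adcyap1 was 1.67 and the P5 contrast of Tbx20 was 0.89, neither of them called.

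With a minimum mean of 5 FPKM, 19 subtype markers were tested and 8 had a peak. After division by the RGC marker level 2 of the 37 had a peak. Of the 23 tested general RGC markers, 6 had a peak (26.1%, against 11.5% of all genes tested). The contrast called 19 of the 23 higher than the average of the other ages. The median difference over the list was 3.09 from Adult and -0.07 from E18. Thy1, the antigen used for the capture, had 161 and 241, 391 and 369, and 138 and 129 FPKM and was the two-sided peak of this list. The other 5 peaks, among them the RGC transcription factors Pou4f2 and Pou4f3, were not called against E18.

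**Figure D3:**
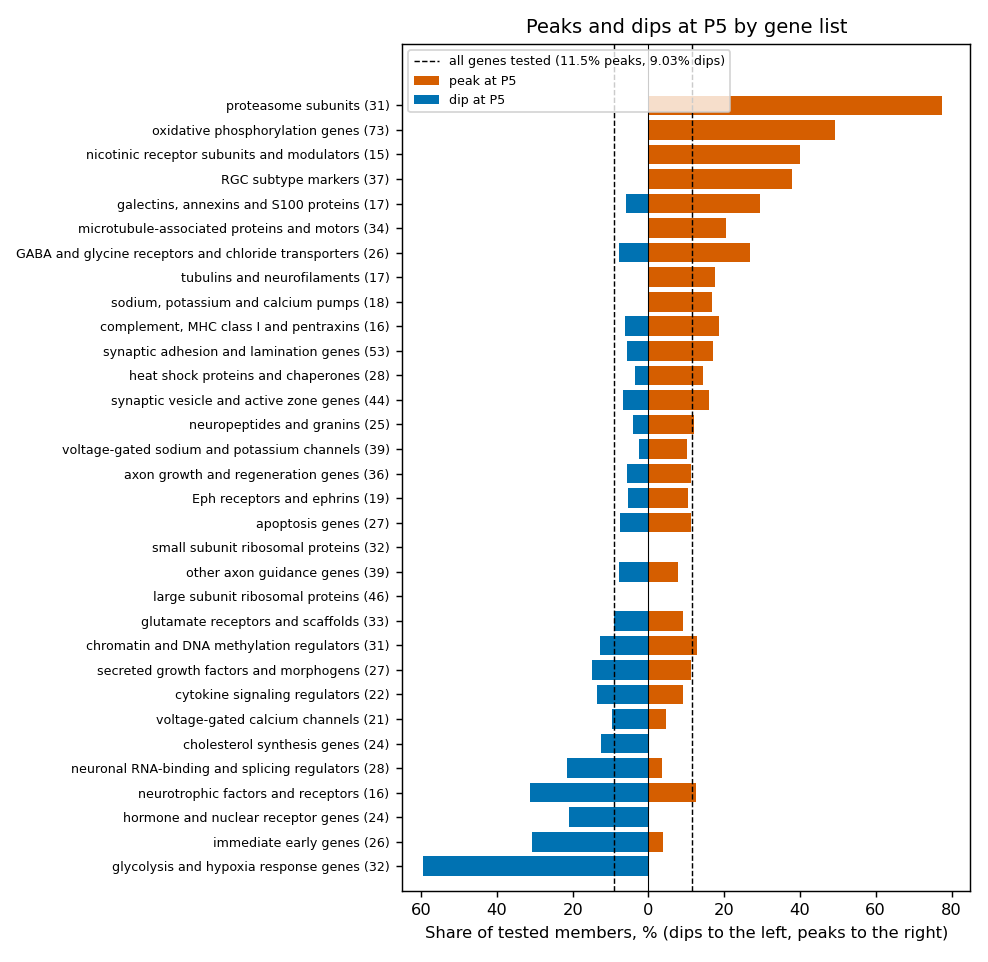
Share of the tested members of each pathway list of at least 10 tested genes, without the families chosen after values were seen, with a peak (orange, to the right) or a dip (blue, to the left) at P5, with the number tested in parentheses. Dashed lines mark the shares over all genes tested, 11.5% and 9.03%, and proteasome subunits (77.4% peaks) and glycolysis and hypoxia genes (59.4% dips) reach farthest on either side.

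Nicotinic acetylcholine receptors drive the spontaneous waves of the retina in the first days after birth. Of 15 tested subunits and modulators of these receptors, 6 had a peak (40%, against 11.5% of all genes tested) and none a dip. The median P5 contrast was 0.49, or -0.69 after division by the RGC marker level (-1.29 for all tested genes). Chrna6, the alpha6 subunit, had 75.2 and 98.0 FPKM at E18, 230 and 155 at P5, then 64.3 and 48.1 in Adult, and was called against both ages (limma adjusted p = 0.0374 and 0.00131). Chrna3, the alpha3 subunit, had 21.1 and 20.6, 25.9 and 21.9, and 2.11 and 1.26 FPKM. Its P5 libraries were the highest, but by 1.15-fold over E18 on average, which was not called (adjusted p = 0.551 by limma).

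The other 4 nicotinic peaks were modulators from the Ly6 family, small membrane-anchored proteins that bind these receptors. Lypd6 had 16.8 and 16.2, 36.8 and 35.5, and 7.26 and 5.03 FPKM, and the P5 mean was 2.19-fold that of E18. Lypd1 had 10.1 and 11.8, 21.1 and 18.2, and 9.58 and 7.36 FPKM. Both were two-sided peaks, while Lypd6b (P5 contrast 1.42) and Ly6h (0.85) were not called against E18. The list had 6 or 7 peaks with any 1 library left out and had none after that division.

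GABA receptors mediate depolarizing responses in immature neurons and inhibition later on. Of 26 tested GABA and glycine receptor genes and chloride transporters, 7 had a peak (26.9%) and 2 a dip (7.69%). The shares over all genes tested were 11.5% and 9.03%. The median P5 contrast of the 26 genes was 0.21 and turned to -0.06 without P5 library a. After division by the RGC marker level it was -1.06, against -1.29 for all tested genes. Gabra5, the alpha5 subunit, had 4.38 and 4.77 FPKM at E18, 14.3 and 12.6 at P5, then 0.622 and 0.351 in Adult. Its P5 mean was 2.94-fold that of E18 and 27.6-fold that of Adult (limma adjusted p = 0.0113 and 4.99e-05), and it stayed a two-sided peak after division by the RGC marker level. Gabra2 had 19.3 and 20.7, 44.7 and 33.0, and 19.8 and 26.3 FPKM, and without P5 library a the P5 contrast of Gabra2 was 0.61 and not called. Gabbr2, a subunit of the metabotropic GABA-B receptor, had 25.9 and 27.4, 68.2 and 67.2, and 34.7 and 41.8 FPKM.

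Gabrg1 rose from 1.01 and 1.12 FPKM at E18 to 11.2 and 11.8 FPKM at P5 and had 7.76 and 9.72 FPKM in Adult, a decline that was not called (adjusted p = 0.0844 by limma). Gabra3, the alpha3 subunit, was one of the 2 dips, with 14.0 and 15.1, 11.7 and 10.99, and 24.2 and 32.6 FPKM. The number of peaks in this list was 14 with TPM, 4 with scaling to protein-coding genes, 4 without P5 library a and 1 after division by the RGC marker level.

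Lists of axon guidance, synapses and transport differed in their shares of peaks. Over all genes tested 11.5% had a peak and 9.03% a dip. Among 39 further guidance genes, 3 had a peak and 3 a dip (7.69% each). Nrp2, a receptor for class 3 semaphorins, had 12.5 and 13.6, 24.0 and 23.5, and 7.66 and 8.59 FPKM, and Plxnc1, a plexin, had 9.30 and 9.50, 14.4 and 14.0, and 8.02 and 7.98 FPKM. Both were two-sided peaks. Among 53 synaptic adhesion genes, 9 had a peak and 3 a dip (17% and 5.66%), and among 44 vesicle and active zone genes 7 had a peak and 3 a dip (15.9% and 6.82%). Cplx1, a complexin that regulates vesicle fusion, was a two-sided peak (P5 contrast 0.69), and Rph3a, a Rab effector on vesicles, was a two-sided dip with 40.9 and 36.8, 27.6 and 26.3, and 56.8 and 60.8 FPKM.

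Of 34 microtubule-associated proteins and motors, 7 had a peak (20.6%) and none a dip. Kif5b, a heavy chain of kinesin-1, had 40.02 and 42.3, 59.2 and 58.5, and 42.1 and 40.8 FPKM. The 2 libraries of each age lay close together for this gene, and it was called against both ages. Among 39 voltage-gated sodium and potassium channel genes, 4 had a peak (10.3%) and 1 had a dip (2.56%). Of the peaks, Scn2a1 was two-sided (32.4 and 38.3, 69.5 and 52.8, and 26.2 and 26.5 FPKM). The glutamate receptors had equal numbers, 3 peaks and 3 dips of 33 (9.09% each, against 11.5% and 9.03% of all genes tested). Grik2, a kainate receptor subunit, was a two-sided dip (14.5 and 16.5, 7.39 and 9.09, and 42.2 and 51.0 FPKM).

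RGCs are lost by programmed cell death around birth. Of 27 tested apoptosis genes, 3 had a peak and 2 a dip, shares near those of all genes (11.1% and 7.41%). Of the 3 peaks, 1 was two-sided. Bak1, a pore-forming protein of the mitochondrial outer membrane, and Cycs, cytochrome c, were not called against E18 (limma adjusted p = 0.143 and 0.167).

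Energy metabolism split in opposite directions at P5. Of 73 nuclear genes of oxidative phosphorylation, the mitochondrial chain that makes most ATP, 36 had a peak and none a dip. The share of peaks was 49.3%, against 11.5% of all genes tested, and 68 of the 73 contrasts were above 0. Of 32 genes of glycolysis and the hypoxia response, 19 had a dip (59.4%, against 9.03% of all genes tested) and none a peak. The median P5 contrast was 0.41 for oxidative phosphorylation and -0.85 for glycolysis. After division by the RGC marker level both were below 0, at -1.03 and -2.29, as was the median of all tested genes, at -1.29.

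The oxidative phosphorylation peaks were low and even. Ndufa5, a subunit of complex I, had 83.5 and 91.9 FPKM at E18, 163 and 143 at P5, then 72.7 and 69.6 in Adult, and Atp5g1, a subunit of the rotor of ATP synthase, had 97.3 and 105, 165 and 152, and 66.4 and 56.9 FPKM. They are, with Ndufa4, Ndufa9 and Ndufb9, the 5 members called against each other age. Cox6c, a subunit of cytochrome c oxidase, had 285 and 280, 397 and 354, and 211 and 215 FPKM and missed the call against E18 (adjusted p = 0.0503 by limma). In 70 of the 73 genes P5 library a had the higher P5 value, and 20 peaks were left without it and 22 without E18 replicate 1. TPM gave 69 peaks, and division by the RGC marker level gave none.

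Proteasome subunits formed the list with the largest share of peaks. The proteasome is the complex that degrades proteins tagged with ubiquitin. Of its 31 tested subunits, 24 had a peak (77.4%, against 11.5% of all genes tested) and none a dip. The median P5 contrast was 0.47, or -0.96 after division by the RGC marker level (-1.29 for all tested genes). None of these peaks was two-sided, and the median difference from E18 was 0.15, against 0.76 from Adult. Psmb6, a catalytic subunit, had 194 and 198 FPKM at E18, 215 and 216 at P5, then 110 and 111 in Adult. Psmc1, an ATPase of the regulatory particle, had 58.6 and 63.9, 83.3 and 78.0, and 49.0 and 46.5 FPKM, with an adjusted p of 0.0581 against E18 by limma. Leaving out any 1 library left between 17 and 23 peaks, while that division gave none.

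**Figure D4:**
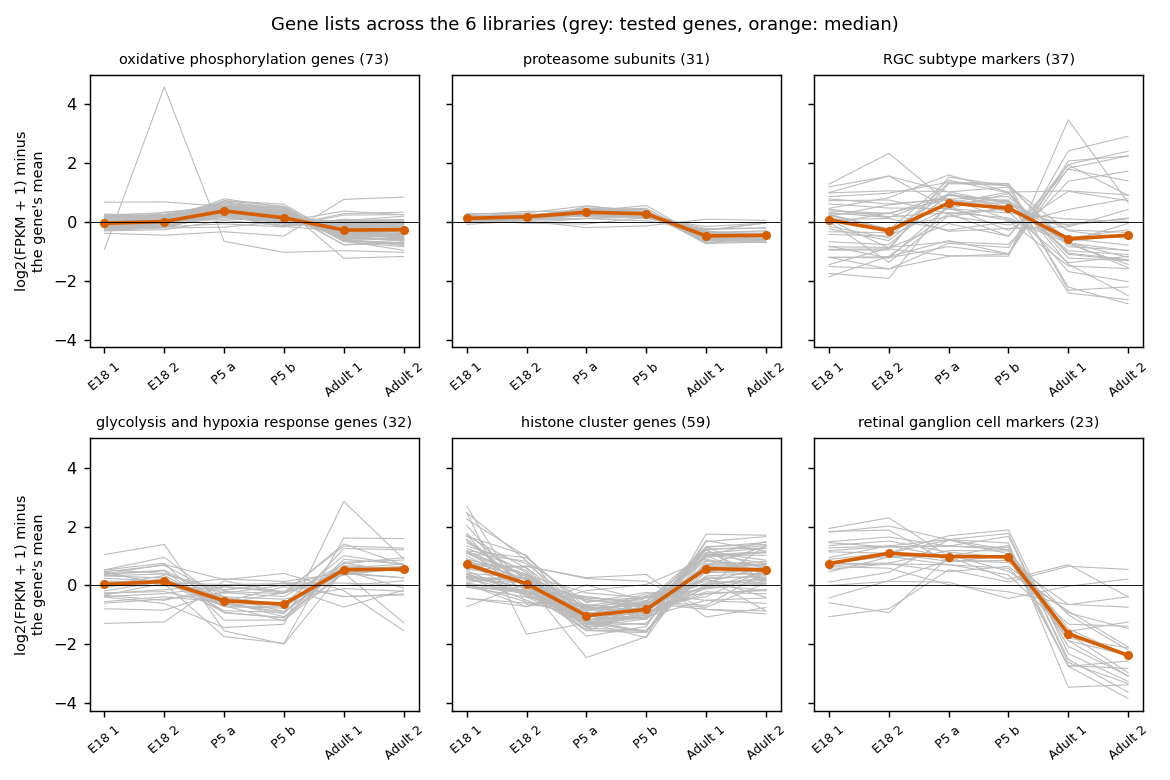
Grey lines are the tested genes of 6 lists, as log2(FPKM + 1) minus the gene's mean over the 6 libraries, and the orange line is the median of the list in each library. The glycolysis and histone medians are lowest in both P5 libraries, those of oxidative phosphorylation, proteasome and RGC subtype genes are highest there, and the median of the RGC markers is high in all 4 younger libraries.

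The glycolytic dip took in transporters, most steps of the pathway and genes induced by low oxygen. Slc2a1, the glucose transporter GLUT1, had 19.7 and 14.7 FPKM at E18, 3.55 and 2.90 at P5, then 45.2 and 44.6 in Adult. Its E18 mean was 5.33-fold and its Adult mean 13.9-fold the P5 mean (P5 contrast -2.77, interval -3.12 to -2.43, limma adjusted p = 0.000422). Slc16a3, the lactate exporter MCT4, had 61.5 and 78.2, 9.38 and 6.62, and 42.5 and 43.5 FPKM (P5 contrast -2.65, interval -3.03 to -2.26, limma adjusted p = 0.000533). For both genes the highest P5 library lay far below the lowest of the other 4, and with 1 library left out the differences from both ages were called in all 6 fits for Slc16a3 and in 4 of them for Slc2a1, whose contrast was called in each.

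Among the enzymes, Pfkl, the liver form of phosphofructokinase, had 86.7 and 94.2 FPKM at E18, 34.6 and 30.6 at P5, then 104 and 95.8 in Adult. Eno1, enolase, had 354 and 331, 158 and 139, and 552 and 495 FPKM. Ldha, the lactate dehydrogenase subunit that favors lactate production, had 380 and 418, 199 and 139, and 395 and 348 FPKM. For each enzyme both P5 libraries lay below the other 4, as the definition of a dip requires. Tpi1, Pgk1, Pkm, Pgam1 and Gpi1 were also two-sided dips, with P5 contrasts between -1.42 and -0.81. Mif, a cytokine with a hypoxia-responsive promoter, had 500 and 476, 219 and 212, and 584 and 622 FPKM, and P4ha1, a collagen prolyl hydroxylase induced by low oxygen, was a two-sided dip as well (P5 contrast -1.06). Aldoa was a dip in which the lower E18 library (412 FPKM) and the higher P5 library (407 FPKM) nearly met, below 1442 and 1399 FPKM in Adult. Gapdh and Bnip3 were dips called against Adult and not against E18.

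The count of glycolytic dips was between 17 and 19 with any 1 library left out, 16 with TPM, and 22 after division by the RGC marker level. Under that division Slc2a1, Slc16a3, Pfkl and Vegfa stayed dips called against each age. Of the 19 dips, 13 were two-sided. Rod photoreceptors are highly glycolytic, and their markers were higher in Adult, with sums over the 16 markers of 6837 and 846 FPKM in Adult replicates 1 and 2. The sum over the glycolysis and hypoxia list was 6970 and 6659 FPKM in the same libraries. Amacrine and Muller glia markers were also higher in Adult, with sums of 1610 and 2144 FPKM and of 1823 and 2137 FPKM. The part of other cells in the Adult levels of glycolytic genes was not tested.

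Short stretches of promoter are shown for glycolytic dips because hypoxia-inducible factors bind a core of ACGTG. The core was sought on both strands in the 250 bases before the RefSeq start site and was found in 10 of the 19 dips, in 5 of the 9 other list members with a promoter entry, and in 22.66% of 8044 tested genes. It is also contained in the E-box CACGTG, which other factors bind. Over the promoters of all dips the share was 22.71%, near that of all tested genes. The stretches below are from RefSeq (GRCm38.p6), read 5′ to 3′ on the strand of the gene and lie outside annotated exons, and capitals mark 1 match to the core, written CACGT where it lies on the other strand. They are Ldha at chr7:46845750-46845794 (plus strand), Pgk1 at chrX:106186949-106186993 (plus), Pgam1 at chr19:41911737-41911781 (plus), Aldoa at chr7:126799356-126799400 (minus) and P4ha1 at chr10:59323260-59323295 (plus).
Ldha: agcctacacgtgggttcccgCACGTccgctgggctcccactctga
Pgk1: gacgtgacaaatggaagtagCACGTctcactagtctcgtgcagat
Pgam1: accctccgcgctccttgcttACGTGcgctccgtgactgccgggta
Aldoa: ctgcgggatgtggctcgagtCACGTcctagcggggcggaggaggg
P4ha1: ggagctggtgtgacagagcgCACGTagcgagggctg
The promoter of Ldha held 5 matches, that of Pgk1 held 2 and those of Pgam1, Aldoa and P4ha1 held 1 each. A match describes these letters and is no measure of binding.

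Vegfa, the angiogenic factor of the hypoxia list, and several trophic receptors were dips. Vegfa had 62.4 and 73.1 FPKM at E18, 18.4 and 18.5 at P5, then 57.9 and 68.0 in Adult, with E18 and Adult 3.67-fold and 3.40-fold the P5 mean (P5 contrast -1.76, interval -2.03 to -1.49, limma adjusted p = 0.000562). Igfbp2, which binds insulin-like growth factors, had 43.2 and 37.3, 10.4 and 9.67, and 42.5 and 65.0 FPKM. Ngfr, the p75 receptor for neurotrophins, had 16.8 and 20.3, 5.87 and 5.41, and 16 and 18.8 FPKM. For each of these genes the 2 P5 values were nearly equal and far below the other 4.

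Of 16 tested neurotrophic factors and receptors, 5 had a dip (31.3%, against 9.03% of all genes tested) and 2 a peak. The median P5 contrast of the list was -0.29 and turned to 0.12 with TPM. Cntfr, the receptor for ciliary neurotrophic factor, had 11.3 and 10.1, 3.52 and 5.60, and 13.9 and 14.8 FPKM. Igf1r, the receptor for insulin-like growth factor 1, had 18.1 and 15.7, 6.70 and 9.82, and 20.1 and 19.9 FPKM, and the related insulin receptor Insr had 16.9 and 18.3, 11.4 and 12.6, and 16.2 and 16 FPKM. The P5 contrast of Insr was -0.05 with TPM, -0.49 and -0.43 without E18 replicates 1 and 2 and -0.39 without P5 library a, and was not called in any of these fits. The ligand Igf1 ran the other way, with a peak at 31.6 and 27.0 FPKM against 20.8 and 18.4 at E18 and 7.87 and 7.14 in Adult. Its difference from E18 was just short of the threshold (adjusted p = 0.0513 by limma).

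Immediate early genes are transcribed within minutes of activity or handling stress. Of 26 tested, 8 had a dip (30.8%, against 9.03% of all genes tested) and 1 a peak, with a median P5 contrast of -0.35. Junb had 29.3 and 27.6 FPKM at E18, 11.3 and 13.8 at P5, then 40.7 and 43.7 in Adult (P5 contrast -1.41, interval -1.67 to -1.14, limma adjusted p = 0.000908). Dusp1, a phosphatase that ends MAP kinase signaling, had 28.5 and 26.1, 11.7 and 8.08, and 23.5 and 47.8 FPKM, and without P5 library b the P5 contrast of Dusp1 was -1.30 and not called. Npas4, a transcription factor induced by neuronal activity, was the peak, with 2.48 and 2.65, 5.83 and 5.98, and 3.52 and 4.14 FPKM. The list had 3 dips without P5 library b and 5 without P5 library a, and with TPM it had 5 dips and a median of 0.00, or -0.44 relative to all genes.

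**Figure D5:**
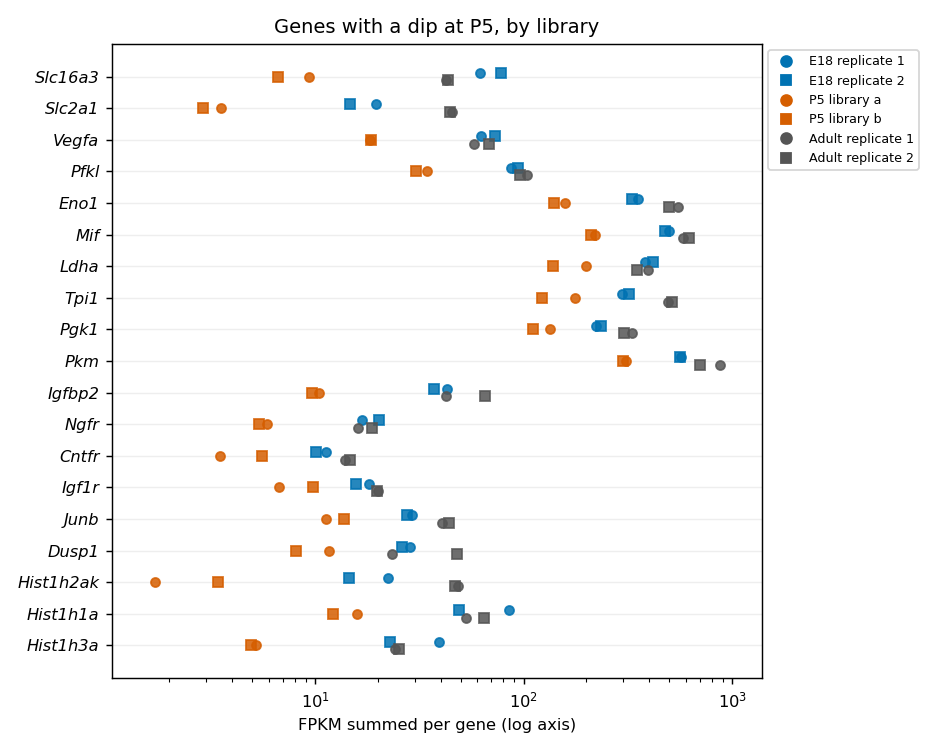
FPKM of 19 genes with a dip at P5, on a log axis, in each of the 6 libraries (circles and squares separate the 2 libraries of an age). By the definition of a dip, the orange P5 points lie to the left of all blue and grey points in every row, from Hist1h2ak (1.70 and 3.42 FPKM at P5) to Pkm (311 and 301 FPKM).

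Histone genes of the replication-dependent clusters made up 11 of the 20 deepest dips (with predicted genes and small RNAs left out and at least 10 FPKM in both other means), and the family was then counted whole, after its values were seen. Their messenger RNAs mostly end in a stem-loop in place of a polyA tail, and in dividing cells they are made during DNA replication. Of 59 tested histone cluster genes, 42 had a dip (71.2%, against 9.03% of all genes tested), 29 of them two-sided, and none a peak. Hist1h2ak had 22.3 and 14.5 FPKM at E18, 1.70 and 3.42 at P5, then 48.3 and 47.0 in Adult (P5 contrast -3.14, interval -3.73 to -2.55, limma adjusted p = 0.000887). The linker histone Hist1h1a had 85.4 and 48.8, 15.9 and 12.1, and 53.2 and 64.3 FPKM. Hist1h3a had 39.4 and 22.97, 5.19 and 4.91, and 24.2 and 25.3 FPKM. Hist1h4n, a core histone H4 gene, had 32.7 and 23.3, 8.95 and 8.46, and 79.4 and 89.7 FPKM.

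In 54 of the 59 genes E18 replicate 1 was higher than replicate 2, and the summed family was 2175 and 1500 FPKM at E18, 764 and 811 at P5, then 1987 and 2067 in Adult. The 16 tested cell cycle and replication genes had no peak or dip, with a summed level over all 24 listed of 201 FPKM in E18 replicate 1, 105 in replicate 2, and between 75.3 and 89.3 in the other 4 libraries. Without E18 replicate 1 the histone family had 35 dips, and without P5 library a it had 25. Libraries were made from polyA-selected RNA, so these values count histone transcripts that passed that selection, and near-identical paralogs within the clusters make the split of reads between single genes uncertain.

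The stem-loop letters are given because they tie the family to its unusual RNA ending. A pattern of 16 bases (GG, 3 free bases, TTTT, 1 free base, A, 3 free bases, CC) was sought on the sense strand within the last 150 bases of annotated transcripts. It occurred in 22 of the 59 genes and in 0.067% of 141767 annotated transcripts. Of 11928 tested genes with annotated transcripts, 49 had it (0.411%). Genes outside the histone clusters were among the 49, such as Ablim3, a peak, and Ddr1, a dip. Within the clusters the pattern was present in 14 of the 42 genes with a dip and in 8 of the 17 without. The forms found in more than 1 of the 59 genes are printed 5′ to 3′ with the paired stem in capitals.
Form in 13 genes, 7 of them dips: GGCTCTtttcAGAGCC
Form in 4 genes, 3 of them dips: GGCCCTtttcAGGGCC
Form in 3 genes, 2 of them dips: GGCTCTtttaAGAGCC

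Among small noncoding RNAs, also chosen after values were seen, the classes differed. Of 133 tested snoRNA genes, which guide the modification of ribosomal RNA, 32 had a dip (24.1%) and none a peak, and of 21 scaRNA genes 6 had a dip (28.6%). Of 71 snRNA genes 7 had a dip (9.86%) and 1 a peak, and of 48 genes annotated as miscellaneous RNA 5 had a dip (10.4%) and 1 a peak, shares near the 9.03% of all genes tested. The RNA components of RNase P and RNase MRP, enzymes that process transfer and ribosomal RNA precursors, were two-sided dips at very high FPKM. Rmrp had 6836 and 6782 FPKM at E18, 3211 and 4126 at P5, then 32636 and 35276 in Adult. Rpph1 had 19999 and 23232, 7987 and 11622, and 77733 and 73968 FPKM. The P5 contrast of Rpph1 was -0.32 with quantile normalization and -1.80 without P5 library a, and was called in neither. FPKM divides by transcript length, so short RNAs reach high values from few fragments. As for the histone genes, these values count only the RNA that passed the polyA selection, which need not follow the amount in the cells.

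Nuclear receptors and neuronal splicing regulators had more dips than peaks. Of 24 hormone and nuclear receptor genes, 5 had a dip (20.8%, against 9.03% of all genes tested) and none a peak. Nr1d1, the circadian repressor REV-ERB alpha, had 11.7 and 11.1 FPKM at E18, 4.81 and 6.35 at P5, then 49.4 and 64.2 in Adult, and Rorb, a nuclear receptor of retinal development, had 35.8 and 30.2, 20.7 and 22.3, and 51.3 and 43.7 FPKM. Both were called against each age. The hour of tissue collection was not given in the sources used here. Of 28 neuronal RNA-binding and splicing regulators, 6 had a dip (21.4%) and 1 a peak. Ptbp1, a repressor of neuronal exons, had 31.7 and 23.2, 10.4 and 13.04, and 22.7 and 23.8 FPKM, and Celf3, a splicing regulator of neurons, had 54.9 and 56.2, 27.6 and 23.5, and 38.1 and 35.8 FPKM.

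Chromatin and DNA methylation regulators had 4 peaks and 4 dips of 31 (12.9% each, against 11.5% and 9.03% of all genes tested). Dnmt3a, the de novo DNA methyltransferase, had 15.7 and 17.5, 27.6 and 27.5, and 18.4 and 17.6 FPKM, a peak called against both ages. Hdac5, a class II histone deacetylase, had 35.9 and 36.5, 23.9 and 24.3, and 99.6 and 91.1 FPKM, a dip called against both. Of 24 cholesterol synthesis genes, 3 had a dip (12.5%). Srebf2, their main transcription factor, had 57.5 and 62.8, 39.0 and 36.0, and 45.5 and 57.6 FPKM, a two-sided dip. The P5 contrast of Srebf2 was -0.12 with TPM, -0.52 without E18 replicate 2, -0.61 without P5 library a and -0.50 without P5 library b, and was not called in these fits. In cytokine signaling, Socs2 and Jak1 were two-sided peaks. Socs3, an inhibitor of that pathway, was a dip with 15.6 and 17.3 FPKM at E18, 2.999 and 3.23 at P5, then 4.03 and 3.67 in Adult, where the Adult side was not called (adjusted p = 0.176 by limma).

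Some dips were markers of other retinal cells. Rax, Lhx2 and Otx2, transcription factors of progenitors, glia, bipolar cells and photoreceptors, had 5.84, 5.90 and 5.67 FPKM in E18 replicate 1, 0.689, 0.283 and 0.503 FPKM in replicate 2, and between 0.0756 and 0.585 FPKM at P5. In Adult they ranged from 8.13 to 37.3 FPKM. E18 replicate 2 was thus close to the P5 values for these genes. Without P5 library a the P5 contrast of Rax was -2.47, the P5 contrast of Lhx2 was -2.19 and the P5 contrast of Otx2 was -3.03, none of them called, nor were they without P5 library b or Adult replicate 1. Over all 1300 dips, E18 replicate 1 was above replicate 2 in 892, against 5808 of all 14390 genes tested. Without that library 768 genes had a dip, 710 of them among the 1300. Cone markers had 5 dips of 9 tested (55.6%), bipolar markers 4 of 13 (30.8%) and Muller glia markers 4 of 15 (26.7%). Amacrine markers had 3 of 15 (20%), progenitor and neuroblast markers 3 of 18 (16.7%) and rod markers 1 of 16 (6.25%). Microglia markers were not high enough to be tested. The median cone marker level was 0.0271 FPKM in P5 library a and 0.0245 FPKM in library b. E18 replicates 1 and 2 had medians of 0.477 and 0.0472 FPKM, far under the Adult medians of 8.15 and 8.65 FPKM. The cone list's median difference from E18 was -0.12, and none of its genes was called lower than E18.

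The series title names Rpl7 and Rpl7a, and at the deposited scale the ribosomal protein genes had neither peaks nor dips, with 46 of the large and 32 of the small subunit tested. Their P5 level lay between the others. Rpl7 had 476 and 517 FPKM at E18, 301 and 287 at P5, then 145 and 141 in Adult (P5 contrast 0.14, interval -0.05 to 0.34, limma adjusted p = 0.205), and the P5 contrast of Rpl7 turned to -0.04 with quantile normalization and was 0.59 and called with TPM. Rpl7a had 183 and 186, 129 and 134, and 48.9 and 48.4 FPKM, and its contrast of 0.47 was called (limma adjusted p = 0.00556) with P5 still below E18. On the log2 scale Rpl7a thus changed more after P5 than before it. After division by the RGC marker level both genes were called dips, with a P5 contrast of -1.29 for Rpl7 and -0.96 for Rpl7a. There were 42 dips among the large and 30 among the small subunit genes. With that scaling the median P5 contrast of all tested genes was also -1.29, and 3036 of 14390 genes had a dip.

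Among 34941 isoforms tested singly, 2549 had a peak (7.30%) and 2007 a dip (5.74%). Of the 1658 genes with a peak, 1337 had at least 1 isoform with a peak and 60 also had an isoform with a dip. Of the 1300 genes with a dip, 834 had an isoform with a dip and 9 an isoform with a peak. In 223 genes isoforms peaked and dipped side by side. Of these, 4 genes (among them Mfsd6, Ndrg4 and Sptan1, named after their values were seen) had an isoform above and another below both ages with each difference called.

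In Mfsd6, which encodes a membrane protein of the major facilitator superfamily, the isoform of 4957 bases had 9.20 and 10.1 FPKM at E18, 36.6 and 28.5 at P5, then 21.0 and 13.6 in Adult. The isoform of 2881 bases had 7.29 and 8.18, 0.989 and 1.47, and 2.61 and 3.58 FPKM. One form was thus highest and the other lowest at P5, with P5 contrasts of 1.27 and -1.43 (limma adjusted p = 0.0126 and 0.0074). In Sptan1, alpha spectrin of the membrane skeleton, the isoform of 7958 bases was listed at 0 in both P5 libraries and at 19.5 and 7.28 FPKM at E18 and 33.8 and 66.7 FPKM in Adult. The isoform of 7585 bases was listed at 3.63 and 10.4 FPKM at P5 and at 0 in the other 4 libraries. Such near-identical isoforms share most reads, and a value listed at 0 can be a failed split between them.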

How the data were processed

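RNA of immunopanned RGCs from mice of 3 ages was sequenced from polyA-selected libraries, 2 per age. The authors deposited FPKM per isoform, made with HISAT2, Cufflinks and Cuffdiff on mm10 per the submitters' processing notes. Versions of these tools are not given in the sources used here. The deposited table lists 50829 isoforms and holds 9 further columns of per-sample values, which were not used. It has 0.0001 in place of 0, which was set to 0 and is called listed at 0, and such a value can be a failed estimate. Every isoform listed reaches at least 1 FPKM in some library.

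FPKM of isoforms were summed by gene symbol. Genes with a mean of at least 1 FPKM over the 6 libraries were kept. limma 3.58.1 in R 4.3.3 was fitted to log2(FPKM + 1) of all 6 libraries with a mean-variance trend, 3 residual degrees of freedom and two-sided tests adjusted by Benjamini-Hochberg over all genes tested. This scale understates the fold change of low genes, and folds in the text are ratios of mean FPKM. Isoforms were fitted the same way. FPKM carry no counts, so no counting error or detection limit could be given, and 2 libraries per age limit the precision. In data simulated for the contrast over 14390 genes, 67% of 100 genes changed by 1 on the log2 scale were called peaks. Of 100 changed by 2, 90% were called, with 10 false calls among 167. The share of false calls among the 1658 measured peaks, of which 404 passed against E18, was not tested.

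Members and gene lists were chosen with earlier results of these data known, so lists are given by counts and medians with no test. The rule for named genes took Rpl7, Rpl7a, Ctxn3, Lgals1 and Pdgfa, the 20 highest peaks and 20 deepest dips at 10 FPKM or more, and of each of 48 lists every peak or dip, the 4 members of lowest p in the contrast and the 2 most abundant ones. The text describes 115 of the genes so taken, and a few items are not reported here. Others, among them genes whose call was lost when 1 library was left out, were not described. The 2 P5 libraries could not be assigned to replicate numbers. Alternatives were other pseudocounts, filters and scalings and leaving out each library. Promoters are from RefSeq and transcripts from the mouse reference annotation, both GRCm38.p6.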

Additional observations from a re-analysis of the deposited data

How the results depend on the processing

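TPM raised the median P5 contrast of all genes from 0.03 to 0.44 and gave 7139 genes higher, 1073 lower, 3989 peaks, 515 dips, 1021 two-sided peaks and 105 two-sided dips, with 86.9% of calls on the higher side against 58.1%. Scaling to protein-coding genes gave 42.9%. The sum used for TPM includes miscellaneous RNA genes, with 245842 and 282010 FPKM in Adult and at most 51410 FPKM in the younger libraries. Their part in the shift with TPM was not tested. Division by the RGC marker level gave 147 higher, 12279 lower, 78 peaks, 3036 dips, 6 two-sided peaks and 49 two-sided dips. A minimum of 5 FPKM left 1507 lower and 864 dips from 9976 genes tested. Adjusting the larger of the 2 p-values gave 119 two-sided peaks and 76 dips. Leaving out 1 library gave 1853 to 2858 higher, 1202 to 2432 lower, 1099 to 1846 peaks, 768 to 1364 dips, 3 to 143 two-sided peaks and 2 to 101 two-sided dips, lowest without E18 replicate 1 or P5 library a. Fewer samples leave fewer degrees of freedom in these fits.

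Among the lists, oxidative phosphorylation had 69 peaks with TPM and 20 to 50 with 1 library left out, and GABA and glycine receptors had 14 with TPM, 4 with protein-coding scaling and 4 to 7. RGC subtype markers had 8 peaks at 5 FPKM or more. Immediate early genes had 5 dips with TPM and 3 to 8 with 1 library left out, and histone genes had 25 to 45. Glycolysis dips and proteasome peaks kept counts within 1.5 times the main one under the planned settings other than division by the RGC marker level, which gave 22 and 0. The P5 contrast of Rpl7 turned to -0.0375 with quantile normalization, and the cause was not tested. For the 115 genes described, 1457 values kept direction and call, 28 lost the call, 1 gained it and 1 reversed, over the settings other than division by the RGC marker level. That division reversed 33 contrasts, 12 of them with a call the other way, and 21 others lost the call. These genes were in part chosen for calls that held, so the counts do not measure stability over all genes. No paired analysis was possible because the P5 columns carry no replicate number.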

Other observations

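Further lists held a few peaks each. Of 36 axon growth genes 4 had a peak (11.1%) and 2 a dip (5.56%), and of 17 tubulins and neurofilaments 3 had a peak (17.6%). Of 19 Eph receptors and ephrins 2 had a peak (10.5%) and 1 a dip (5.26%). Over all genes tested the shares were 11.5% and 9.03%. Basp1, a membrane-bound protein of growing axons, had 774 and 917 FPKM at E18, 1076 and 1162 at P5, then 148 and 201 in Adult. Tubb2a, a beta tubulin, had 721 and 820 FPKM at E18, 1059 and 983 at P5, then 152 and 175 in Adult. Epha5, a receptor that acts in retinal mapping, had 31.5 and 32.6 FPKM at E18, 35.8 and 42.4 at P5, then 11.5 and 12.7 in Adult. Of these genes none was called against E18 (limma adjusted p = 0.174, 0.083 and 0.201). Nptxr, a receptor of the neuronal pentraxins, which gather glutamate receptors at synapses, had 27.7 and 30.8 FPKM at E18, 53.4 and 66.3 at P5, then 26.4 and 31.9 in Adult, and was called against both ages. So was Slc8a2, a sodium and calcium exchanger, with 13.9 and 15.5 FPKM at E18, 22.1 and 20.9 at P5, then 7.55 and 7.47 in Adult.

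Malat1, an abundant nuclear RNA, was listed at 0 in both E18 libraries, at 1272 and 1545 FPKM at P5 and at 3027 and 3377 FPKM in Adult. Rn7sk, a small nuclear RNA, was listed at 0 in all 4 younger libraries and at 186777 and 213874 FPKM in Adult. Both had called contrasts, no fold is given against a value listed at 0, and neither was a peak or dip. The libraries were polyA-selected, and the values count only the RNA that passed that selection.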
